A study of Sus scrofa with 21 samples.

Results

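The transcription regulators that switch male germ cells from meiosis to spermatid differentiation were followed in testis RNA of Landrace and Duroc boars used for artificial insemination. The members were 10 genes chosen by symbol: CREM, RFX2, RFX3, RFX4, MYBL1, TCFL5, SOX30, BRDT, TBPL1 and TAF7L. Of these, 8 could be matched to a row among the 25880 genes counted, and CREM and RFX4 were not analysed here. All 8 passed the filter on low counts, a minimum of 1 CPM (counts scaled to the same library total) reached by 4 libraries of a contrast, 11 of the breed comparison or 8 of the interaction.

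Each library came from the testis of 1 boar, collected at slaughter, and the boars were grouped by sperm hyperactivity, the vigorous asymmetric swimming pattern of sperm near fertilization, as measured in their ejaculates. In Landrace, contrast (i) set 4 boars with high against 4 with low hyperactivity at day 0, the day of collection (L5 to L8 and L1 to L4). Contrast (iii) set 3 boars with a high change in hyperactivity during semen storage (L7, L13 and L15) against 4 with a low change (L2, L9, L10 and L12), so that it shares L7 and L2 with contrast (i). Contrast (ii) used 8 Duroc boars, labelled high (D1 to D5) or low (D6, D7 and D9) at day 0. The study's own listing, matched by boar name, puts every Duroc boar here except D5 in the opposite group, so the sign of every Duroc high versus low difference rests on the labels as deposited. The breed comparison used all 13 Landrace and 8 Duroc boars.

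The libraries held 41358671 to 125576407 gene counts. No 2 libraries of the same group were duplicates. The medians were 82926536 counts in the high and 67344798 in the low boars of contrast (i), and 81320175 and 54774450 in contrast (iii). The lowest count of any member in any library was 2089 reads, for RFX2. The tissue labels were checked against marker genes: those of meiotic cells, spermatids, Leydig cells and most Sertoli markers were detected in every library, while AMH, made by immature Sertoli cells, and NANOS2, a stem cell gene of the testis, had no read in any of the 21 libraries, and the macrophage gene CSF1R had none in 1.

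The members act at successive steps. MYBL1 (A-MYB) is the master activator of the pachytene programme, in which spermatocytes pair their chromosomes and transcribe both meiotic genes and the precursors of pachytene piRNAs, and TCFL5 is a basic helix-loop-helix factor of the same cells. RFX2 and RFX3 bind X-box elements in the promoters of genes for cilia and the sperm tail. RFX2 is a target of MYBL1 in the mouse and is required for spermatids to mature. SOX30 activates genes of haploid germ cells. CREM, a cyclic AMP-responsive factor, drives late spermatid genes such as the protamines. BRDT is the testis member of the BET family, which reads acetylated histones. TBPL1 and TAF7L are germ cell relatives of the general transcription factors TBP and TAF7, which help to place RNA polymerase at promoters.

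By the RefSeq annotation of Sscrofa11.1, RFX2 lies at chr2:72949859-73051184, RFX3 at chr1:218340427-218647389 and MYBL1 at chr4:68120078-68159513. TCFL5 lies at chr17:62093906-62115669, SOX30 at chr16:65642107-65677693 and BRDT at chr4:125004897-125062208. TBPL1 lies at chr1:29899956-29936773 and TAF7L at chrX:82930258-82951065. The counts cover whole genes, so isoforms of a member were not separated.

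In contrast (i), RFX2 fell and BRDT rose in the high hyperactivity boars. These were the 2 of 8 members that passed edgeR's quasi-likelihood test at an adjusted p of 0.05, against 20.7% of all 12979 genes tested. Of all genes, 4.82% were called higher in the high group and 15.8% lower. At an unadjusted p under 0.05 there were 5 members, RFX2, RFX3, MYBL1, BRDT and TAF7L, against 41.7% of all genes. The same 5 had groups that did not overlap, against 31.4% of all genes. The median log2 fold change over the 8 members was 0.33, beside 0.03 over all genes tested. In whole testis, fewer cells of a type and less RNA per cell cannot be told apart, and this holds for every level below.

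RFX2 was at 75.3, 77.6, 82.6 and 79.3 CPM in the low boars L1 to L4. In the high boars L5 to L8 it was at 51.4, 30.9, 47.2 and 26.9 CPM. The low boars lay close together, the high boars were spread, and every high boar was below every low boar. Mean RFX2 was 78.7 ± 3.07 CPM (SD, n = 4) in the low boars, against 39.1 ± 12 CPM (SD, n = 4) in the high boars, a log2 fold change of -1.08 (SE 0.21, 95% interval -1.53 to -0.63, edgeR adjusted p = 0.0208). RFX2 stood at rank 109 of the 12979 genes ordered by p. A two-sided exact permutation test of the log2 CPM gave p = 0.0286, the smallest that 4 boars against 4 allow. The adjusted p was 7.06e-05 to 0.0272 over the other methods and settings, and rose to 0.0504 without L3 and 0.0532 without L6, which ends the call.

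BRDT was at 957, 916, 694 and 865 CPM in the low boars L1 to L4 and at 1223, 1104, 1149 and 1551 CPM in the high boars L5 to L8. No low boar reached the level of any high boar, with L8 the highest and L3 the lowest of all 21 libraries. The log2 fold change was 0.48 (SE 0.15), with an adjusted p of 0.0415 in edgeR and an exact permutation p of 0.0286. The call was lost when L1, L2, L3, L4, L6 or L8 was left out, with an adjusted p of up to 0.14, and the fold change then lay between 0.36 and 0.54 on the log2 scale.

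**Figure D1:**
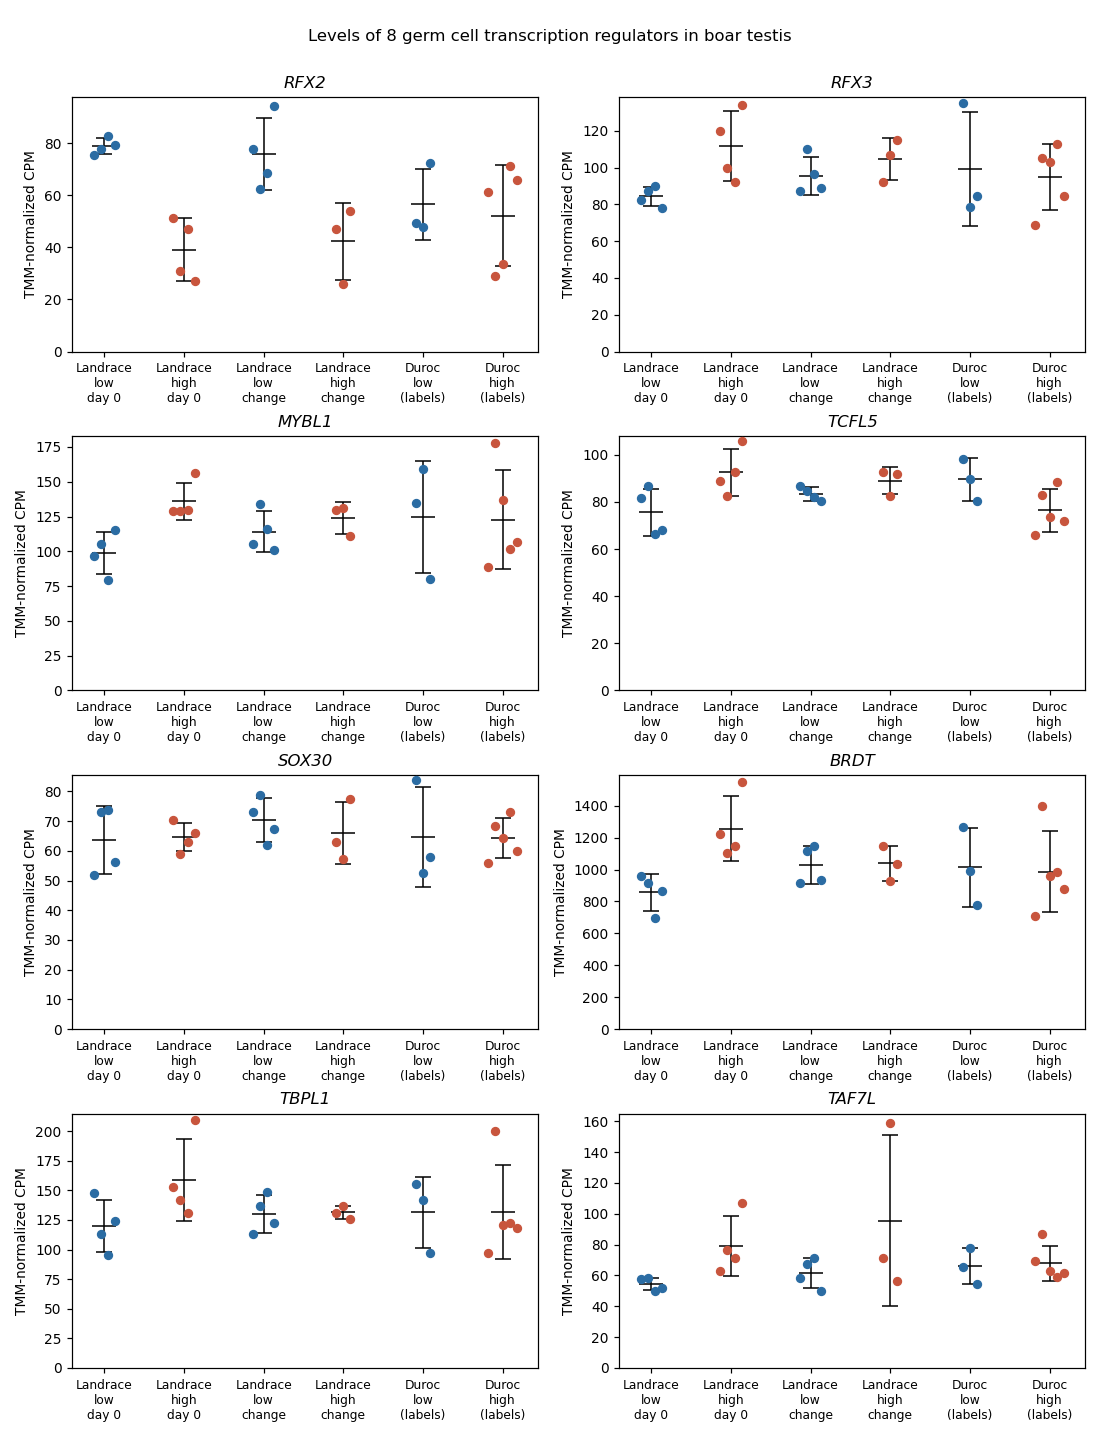
TMM-normalized CPM (vertical axis) of the 8 members in each boar, by Landrace group at day 0, Landrace group by change in storage and labelled Duroc group (horizontal axis); points are boars, horizontal marks are means and bars are SD. L2 and L7 appear in both Landrace comparisons. RFX2 lies between 75.3 and 82.6 CPM in the low and between 26.9 and 51.4 CPM in the high day 0 boars, while BRDT, TAF7L, MYBL1 and RFX3 lie higher in the high day 0 boars.

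The other 3 members without overlap were higher in the high boars but did not pass the adjusted threshold in edgeR's quasi-likelihood test. TAF7L, the X-linked relative of TAF7, was at 57.5, 58.2, 50 and 51.8 CPM in L1 to L4 and at 62.6, 76.4, 71 and 107 CPM in L5 to L8. Its log2 fold change was 0.47 (SE 0.16), with an adjusted p of 0.0547 in edgeR, of 0.029 in DESeq2, and between 0.029 and 0.193 over all methods and settings tried with every boar kept. MYBL1 was at 96.6, 105, 79.4 and 115 CPM in L1 to L4 and at 129, 129, 130 and 156 CPM in L5 to L8. Of the high boars 3 were nearly equal, and L8 stood above them. Its log2 fold change was 0.38 (SE 0.14), with an adjusted p of 0.0611 in edgeR, and between 0.0378 and 0.0684 over the other methods and settings. RFX3, which shares its DNA-binding domain with RFX2, was at 82.2, 87.3, 89.8 and 78.1 CPM in L1 to L4 and at 120, 100, 92.4 and 134 CPM in L5 to L8. The gap between its groups was small, from 89.8 CPM in L3 to 92.4 CPM in L7. Its log2 fold change was 0.33 (SE 0.14), with an adjusted p of 0.0921 in edgeR. Each of TAF7L, MYBL1 and RFX3 had an exact permutation p of 0.0286.

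The last 3 members overlapped between the groups. TBPL1 ran from 95.3 to 148 CPM in the low and from 131 to 209 CPM in the high boars (log2 fold change 0.33, SE 0.17, adjusted p = 0.153 in edgeR). TCFL5 ran from 66.3 to 86.7 CPM in the low and from 82.7 to 106 CPM in the high boars (log2 fold change 0.22, SE 0.13, adjusted p = 0.217 in edgeR). SOX30 differed least, at 51.7 to 73.6 CPM in the low and 59.1 to 70.5 CPM in the high boars (log2 fold change -0.05, SE 0.15, adjusted p = 0.814 in edgeR).

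The meiotic and piRNA genes, summed over the 21 with a row, were at 3312 to 4243 CPM in the low and 4893 to 6720 CPM in the high boars of contrast (i), which do not overlap. Summed postmeiotic genes overlapped, at 11085 to 16241 CPM in the low and 13187 to 17932 CPM in the high boars. Such sums weigh the most abundant genes most. DDX4 alone had a mean of 1247 CPM in the low and 1881 CPM in the high boars, and TNP1 of 5623 and 6804 CPM. Of the 15 postmeiotic genes, 7 were lower in the high boars at the adjusted threshold in edgeR, which their sum does not show. The 5 peritubular markers summed to 47.9 to 103 CPM in the low and 17.6 to 63 CPM in the high boars, and the 6 Leydig markers to 1718 to 2175 and 610 to 4623 CPM. The part of these shifts, and of the deeper libraries of the high group, in the values of RFX2, BRDT and the other members was not tested.

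RFX2 and RFX3 lay on opposite sides in contrast (i), so the ratio of their CPM was taken within each boar. It was chosen after the values were seen and is given as a description, with no test, since groups of both genes that do not overlap in opposite directions fix its direction. The 2 genes have different lengths, so the ratio is read only between boars. It was 0.201 to 0.511 (median 0.368) in the high and 0.889 to 1.02 (median 0.918) in the low boars of contrast (i). The mean log2 ratio differed by -1.45. In contrast (iii) it was 0.241 to 0.511 in the high and 0.57 to 1.06 in the low boars (log2 difference -1.02). Between the labelled Duroc groups the log2 difference was -0.13, and between the breeds -0.04.

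In contrast (iii), RFX2 again separated the groups, with 77.6, 62.5, 68.7 and 94.2 CPM in the low boars L2, L9, L10 and L12 and 47.2, 25.8 and 53.9 CPM in the high boars L7, L13 and L15. Every high boar was below every low boar, and L12 and L13 held the highest and the lowest RFX2 of all 21 libraries. The log2 fold change was -0.85 (SE 0.25), with edgeR p-values of 0.00616 before and 0.24 after adjustment. The exact permutation p was 0.0286, the smallest that 3 boars against 4 allow. No member passed the adjusted threshold in edgeR's quasi-likelihood test, as for 0% of the 12824 genes tested. The likelihood ratio test called 64 genes and DESeq2 116, and no member was among them. RFX2 was the 1 member with an unadjusted p under 0.05, against 19.8% of all genes, and the 1 member without overlap, against 16.4%. Without the shared boars L2 and L7 the log2 fold change of RFX2 was -0.94, with an adjusted p of 0.304 in edgeR. The adjusted p was 0.0685 to 0.304 over all other methods and settings, and 0.108 to 0.606 with 1 boar left out. The log2 fold change then ran from -1.07 without L15 to -0.59 without L13.

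TAF7L had the highest log2 fold change in contrast (iii), 0.62 (SE 0.31, adjusted p = 0.276 in edgeR), and 1 boar decided it. It was at 58.2, 67.3, 71.2 and 49.7 CPM in the low boars L2, L9, L10 and L12 and at 71, 159 and 56.6 CPM in the high boars L7, L13 and L15. L13 alone stood far above the low boars, and without it the log2 fold change was 0.05. L13 also had the highest summed Sertoli markers of all boars, 576 CPM, against 235 to 270 CPM in the low boars of contrast (iii). The part of that in its TAF7L and RFX2 levels was not tested. The other 6 members had log2 fold changes from -0.10 to 0.12 in contrast (iii), with adjusted p from 0.609 to 0.993 in edgeR. BRDT, which rose in contrast (i), was at 916 to 1149 CPM in the low and 931 to 1149 CPM in the high boars of contrast (iii), a log2 fold change of 0.00.

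In Duroc, no member passed the test between the labelled groups. RFX2 was at 61.2, 29.1, 33.7, 71.2 and 65.7 CPM in D1 to D5, labelled high, and at 49.4, 47.7 and 72.2 CPM in D6, D7 and D9, labelled low. The groups overlapped, with the lowest level in D2, labelled high, and the highest in D9, labelled low. The log2 fold changes of the 8 members ran from -0.20 for TCFL5 to 0.07 for TAF7L, each with an adjusted p of 1 in edgeR, and all overlapped between the groups. Of all 13043 genes, 0% were called, 1.21% had an unadjusted p under 0.05 and 1.3% did not overlap, and no member was among them. No member was called by the likelihood ratio test or DESeq2 either.

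The spread within the labelled high Duroc group was wide for several members. D2 combined the lowest RFX2 among Duroc boars, 29.1 CPM, with the highest MYBL1 (178 CPM), BRDT (1397 CPM), TBPL1 (200 CPM) and TAF7L (86.6 CPM). D1 in the same group had 61.2 CPM of RFX2, 88.9 CPM of MYBL1 and 712 CPM of BRDT. D2 and D3, the Duroc boars with the least RFX2, also had the deepest Duroc libraries, with 84446404 and 125576407 gene counts, and the part of depth in these levels was not tested.

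Each member's levels overlapped between the breeds. RFX2 ran from 25.8 to 94.2 CPM in Landrace and from 29.1 to 72.2 CPM in Duroc, and the log2 fold change of Duroc over Landrace ran from -0.13 for RFX2 to 0.08 for MYBL1, each with an adjusted p of 0.999 in edgeR. None of the 8 was called or had an unadjusted p under 0.05, against 2.77% and 12.2% of the 12835 genes tested, nor was any called by the likelihood ratio test or DESeq2. The exact permutation p ran from 0.541 to 0.854. The labels give no batch for the breeds, so breed and any batch cannot be told apart.

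**Figure D2:**
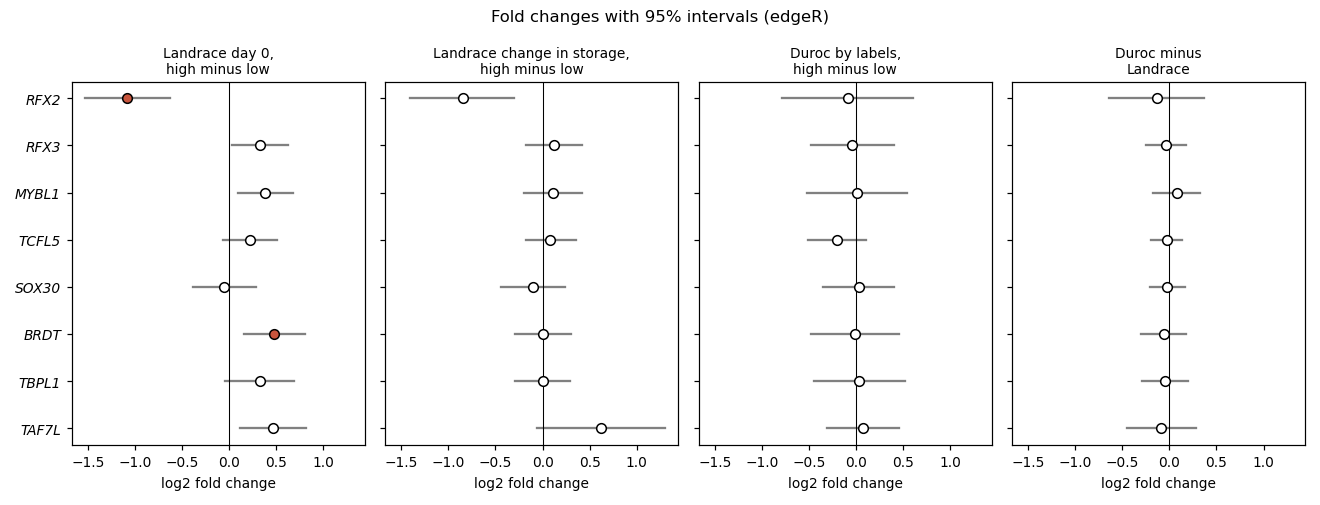
log2 fold change (horizontal axis) of each member (vertical axis) in 4 comparisons; points are edgeR estimates, bars are 95% intervals, and filled points have an adjusted p under 0.05. RFX2 at -1.08 and BRDT at 0.48 in the day 0 comparison of Landrace boars are the filled points, and the breed comparison stays within -0.13 to 0.08.

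The difference between the Duroc effect by labels and the day 0 Landrace effect was tested as an interaction. For RFX2 it was 0.97 on the log2 scale (SE 0.42, 95% interval 0.08 to 1.86), with edgeR p-values of 0.0338 before and 0.329 after adjustment. For TCFL5 it was -0.45 with edgeR p-values of 0.0203 before and 0.329 after adjustment, and for BRDT -0.52 with an adjusted p of 0.329 in edgeR. These values rest on the Duroc labels as deposited, and no fit with the study's own listing is given. By the labels TCFL5 had a log2 fold change of -0.20 in Duroc and 0.22 in Landrace, so a turned Duroc sign would bring these closer. RFX2 had -0.09 and -1.08, which a turned sign would not. With the Duroc labels as deposited, RFX2 and TCFL5 were the 2 members with an unadjusted p under 0.05, against 15.1% of the 12920 genes tested. No member passed the adjusted threshold, as for 0% of all genes. The 2 alternatives tried for this difference with every boar kept, the likelihood ratio test among them, called no member.

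Over all boars of each breed, RFX2 and MYBL1 ran in opposite directions, and relations within hyperactivity groups are not given. RFX2 was taken as the reference after its values were seen, and 18 relations of log2 CPM were computed, 9 in each breed. The Landrace boars include L1 to L8 of contrast (i), where RFX2 was lower and RFX3, MYBL1 and TAF7L were higher without overlap. The Landrace r of these genes with RFX2 restate that difference in part, so their p-values are descriptions. No share of all genes with as strong an r is given. Over 13 Landrace boars RFX2 correlated with MYBL1 at Pearson's r = -0.75 (permutation p = 0.00262, adjusted p = 0.0236 over the 18 relations, Spearman's rho = -0.802, permutation p = 0.00162). Without the 2 boars farthest from the median RFX2, L13 and L8, r was -0.66. Over 8 Duroc boars the same relation had r = -0.851 (exact permutation p = 0.00781, adjusted p = 0.0427, rho = -0.905), and r = -0.878 without D2 and D3.

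RFX2 and TAF7L showed the strongest relation in Landrace, with r = -0.875 (permutation p = 1e-05, the smallest that the permutations can give, adjusted p = 0.00018, rho = -0.885), and r = -0.784 without L13 and L8. This relation also restates contrast (i) in part, and L13 held the lowest RFX2 and the highest TAF7L of all 21 libraries. In Duroc r was -0.708 (exact permutation p = 0.0495, adjusted p = 0.0809, rho = -0.833), and -0.841 without D2 and D3. For RFX3 in Landrace r was -0.681 (permutation p = 0.0112, adjusted p = 0.0427), falling to -0.545 without the 2 farthest boars. In Duroc its r was -0.296. As for the ratio of RFX2 to RFX3, the groups of contrast (i) fix the Landrace direction in part, so the Landrace p-values are descriptions. For TBPL1 r was -0.609 in Landrace and -0.729 in Duroc, for BRDT -0.574 and -0.669, and for TCFL5 -0.57 and -0.0823, and none of these r had an adjusted permutation p under 0.05 over the 18 relations. For TCFL5 in Landrace, Spearman's rho was -0.687 (adjusted permutation p = 0.041). SOX30 had r = 0.193 in Landrace and -0.178 in Duroc. Whether the relations differ between breeds was not tested.

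RFX2 was also lower in deeper libraries. Against the log2 of total gene counts r was -0.66 in Landrace (permutation p = 0.0157, adjusted p = 0.047) and -0.835 in Duroc (exact permutation p = 0.0119, adjusted p = 0.0427). Without the 2 farthest boars these became -0.45 and -0.487, so they rest in part on those boars. The Landrace boars were also picked for extreme hyperactivity. The part of depth and of this selection in the relations of RFX2 with MYBL1 and TAF7L was not tested.

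**Figure D3:**
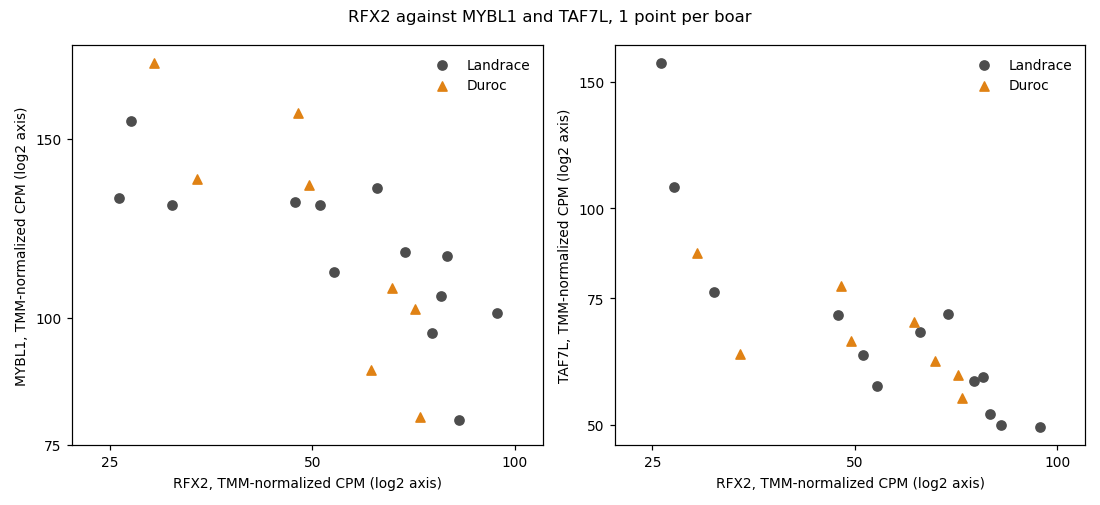
CPM of MYBL1 and TAF7L (vertical axes, log2 scale) against CPM of RFX2 (horizontal axis, log2 scale), with 1 point per boar, circles for 13 Landrace and triangles for 8 Duroc boars. Boars with less RFX2 lie higher in both panels; the Landrace boar with 159 CPM of TAF7L is L13, which has 25.8 CPM of RFX2.

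For each member the genes with the most similar log2 CPM over the 13 Landrace boars were listed, among 10786 genes with a symbol. Nearest to RFX2 were DENND5A (r = 0.991 in Landrace, 0.926 in the 8 Duroc boars) and PPP6R1, a regulatory subunit of protein phosphatase 6 (0.99 and 0.986). Nearest to BRDT were TAX1BP1 (0.984 and 0.95) and DDX4, the germ cell RNA helicase VASA (0.983 and 0.984). Nearest to MYBL1 were ATP6V1A (0.977 and 0.905) and SPTY2D1 (0.976 and 0.968), and to TAF7L HPRT1 (0.981 and 0.865) and MMD (0.976 and 0.854). TBPL1 ran closest to IQUB (0.976 and 0.857) and LZTFL1 (0.975 and 0.838), and RFX3 to C2orf42 (0.955 and 0.962) and NUFIP2 (0.943 and 0.645). TCFL5 had NEK4 (0.937 and 0.604) and MARCHF11 (0.929 and 0.662). SOX30 had the weakest likeness, with ARHGAP21 (0.84 and 0.887) and ANAPC1, whose r of 0.828 in Landrace was -0.00201 in Duroc. The points share their libraries, and these correlations are descriptions.

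Among the paralogues and partners of the members, 21 of 24 listed genes had a row and were tested. In contrast (i), 1 was higher in the high boars and 4 were lower, shares close to the 4.82% and 15.8% of all genes, with a median log2 fold change of 0.18 beside 0.03 over all genes. Of the RFX family, RFX1, which binds the same X-box, fell by 1.06 on the log2 scale (SE 0.19, adjusted p = 0.0208 in edgeR), from 30.1 ± 3.44 CPM (SD, n = 4) in the low to 15.2 ± 3.45 CPM (SD, n = 4) in the high boars. RFXANK, a subunit of the complex that activates MHC class II genes, fell by 0.94 (adjusted p = 0.0208 in edgeR). RFX1 and RFXANK fell as RFX2 did, while RFX7 had 0.41 (adjusted p = 0.09 in edgeR) and RFX5 -0.07 (adjusted p = 0.683 in edgeR).

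In the MYB family, MYBL2, the factor of dividing cells, fell by 1.07 on the log2 scale (adjusted p = 0.0239 in edgeR) at a low level, from 7.54 ± 2.17 CPM (SD, n = 4) to 3.76 ± 0.851 CPM (SD, n = 4). For MYB, the founding member, the estimate was 0.71 (edgeR adjusted p = 0.0678). The large subunit gene of TFIIA, GTF2A1, whose product binds TBPL1, rose by 0.45 on the log2 scale (adjusted p = 0.0405 in edgeR). TAF7, the ubiquitous paralogue of TAF7L, had 0.34 (adjusted p = 0.0793 in edgeR).

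CREM itself has no value here, but its partners were measured. FHL5 (ACT), its coactivator in spermatids, was at 130 to 223 CPM in the low and 216 to 285 CPM in the high boars of contrast (i) (log2 fold change 0.42, adjusted p = 0.0796 in edgeR). KIF17, a kinesin that carries FHL5 out of the nucleus, was at 129 to 162 CPM in the low and 60.5 to 117 CPM in the high boars, without overlap, and fell by 0.88 on the log2 scale (SE 0.21, adjusted p = 0.0219 in edgeR). The estimates in contrast (iii) were -0.82 for RFX1, -0.66 for RFXANK and -0.74 for KIF17, each with an adjusted p of 0.24 in edgeR, and these rest in part on the shared boars L2 and L7.

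Genes that act downstream or at the same stage were split. Of 15 postmeiotic genes tested, 7 were lower in the high boars of contrast (i) and 0 higher at the adjusted threshold in edgeR, against 15.8% and 4.82% of all genes, with a median of -0.21 beside 0.03. They include targets of CREM. PRM1, which packs sperm DNA, fell by 0.70 on the log2 scale (adjusted p = 0.0338 in edgeR), TNP2, a transition protein, by 0.73 (adjusted p = 0.0324 in edgeR), and TSSK6, a spermatid kinase and the lowest of the list, by 1.41 (adjusted p = 0.0208 in edgeR). Of the 15, 6 had a log2 fold change above 0, and the highest was ACRV1, an acrosomal protein, at 0.46 (adjusted p = 0.0579 in edgeR). TNP1 had 0.21, AKAP4 0.31 and ODF1 0.07, with adjusted p from 0.199 to 0.743 in edgeR. In contrast (iii), PRM1 had -1.05, TNP2 -0.81 and TSSK6 -1.29, each with an adjusted p of 0.24 in edgeR. Of the 15 genes, 9 had an unadjusted p under 0.05 there, against 19.8% of all genes. The log2 fold change was above 0 for 2, with a median of -0.56 beside 0.00.

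Of 21 meiotic and piRNA genes, among them targets of MYBL1, 2 were higher and 1 was lower in contrast (i), against 4.82% and 15.8% of all genes, and 18 had a log2 fold change above 0, with a median of 0.27 beside 0.03. DDX4 rose by 0.52 on the log2 scale (adjusted p = 0.045 in edgeR) and DMC1, the meiotic recombinase, by 0.50 (adjusted p = 0.0308 in edgeR), while SYCE3 of the synaptonemal complex fell by 0.93 (adjusted p = 0.0438 in edgeR). SPO11, which makes the breaks that start recombination, had the highest value, 1.20, but its SE was 0.68 (edgeR adjusted p = 0.192).

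Of 8 ciliary genes bound by RFX factors, 1 was lower and 0 higher in contrast (i), against 15.8% and 4.82% of all genes, with a median of 0.24 beside 0.03. IFT172, of the transport machinery of cilia, fell by 0.46 on the log2 scale (adjusted p = 0.0479 in edgeR). The lowest, FOXJ1, the regulator of motile cilia, had -0.82 (adjusted p = 0.0714 in edgeR), and ALMS1, a protein of the ciliary base, had the highest value, 0.40 (adjusted p = 0.0705 in edgeR). Of 18 other germ cell transcription regulators, 4 were lower and 0 higher, against 15.8% and 4.82% of all genes, with a median of -0.10 beside 0.03. The 4 were MEIOSIN, which starts meiosis with STRA8 (fell by 1.35 on the log2 scale, adjusted p = 0.038 in edgeR), the chromatin remodeller CHD5 (by 0.86), DMRTC2 (by 0.73) and CREB3L4 (by 0.70). MEIOSIN lay near the filter's minimum of 1 CPM, at 0.995 to 2.17 CPM in the low and 0.288 to 0.839 CPM in the high boars. It passed the filter through the low boars, and the part of the filter in its call was not tested. SOHLH2 had the highest value of the list, 0.50 (adjusted p = 0.19 in edgeR). In contrasts (ii) and (iii) no gene of any of these 5 lists passed the adjusted threshold.

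Marker lists of other cell types were set against the 20.7% of all genes called in contrast (i). No Sertoli, Leydig, endothelial or macrophage marker passed the adjusted threshold in edgeR, while 2 of 4 peritubular markers, DES and MYH11, were lower in the high boars, with log2 fold changes of -1.50 to -0.88 over the 4, and 1 of 3 spermatogonial markers, ID4, was higher. At an unadjusted p under 0.05 there were 3 of 4 peritubular, 1 of 3 spermatogonial, 2 of 8 Sertoli, 1 of 6 Leydig, 1 of 4 endothelial and 0 of 2 macrophage markers. The share of all genes was 41.7%.

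The neighbourhood of TCFL5 on chr17 was described after its values were seen. Within 500 kb of TCFL5, 13 other protein-coding genes were tested, and 11 of them were lower in the high boars of contrast (i) at the adjusted threshold in edgeR, with log2 fold changes from -1.96 to -0.67, against 15.8% of all genes. TCFL5 itself, at 0.22, overlapped between the groups, and the other exceptions were SS18L1 at -0.01 and GMEB2 at -0.82 (adjusted p = 0.177 in edgeR).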

How the data were processed

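The authors extracted RNA from testis with the RNeasy Midi kit, made stranded TruSeq mRNA libraries, trimmed single reads with Trimmomatic 0.36, aligned them to Sscrofa11.1 with STAR, and counted them per Ensembl gene with HTSeq on the reverse strand. The deposited values are raw read counts, 1 file per boar and 1 boar per library, without normalization. Rows that name no gene held 29.4% to 39% of the reads and were left out. Boars were grouped by the deposited labels.

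The analysis used edgeR 4.0.16 in R 4.3.3. Libraries were normalized by TMM, genes with at least 1 CPM in 4 libraries (each contrast), 11 (breeds) or 8 (interaction) were kept, and edgeR's quasi-likelihood test was applied to the boars of 1 comparison, with Benjamini-Hochberg adjustment over all genes and a threshold of 0.05. The authors state a likelihood ratio test in edgeR 3.12.1, which was an alternative here. An SE is the size of a log2 fold change divided by the root of its F statistic, and 95% intervals from the t distribution with edgeR's degrees of freedom. CPM are TMM-normalized over all 21 libraries, and log2 CPM used a prior count of 2. Permutation tests were two-sided on log2 CPM, exact over 70, 56, 35 and 203490 assignments for contrasts (i), (ii), (iii) and the breeds, and used 100000 permutations for correlations over 13 boars. The fits were tested on simulated data. Symbols came from a table that named 14857 identifiers, and coordinates from RefSeq by symbol.

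The members and lists were chosen with earlier results of these data known. Named genes are all members, up to 4 per list (the lowest and highest log2 fold change in contrast (i), and paralogues, partners or known targets of a member), and the 2 genes most like each member; other genes were named after their values were seen, and some listed genes are not reported here. Alternatives were DESeq2 1.42.0, a likelihood ratio test, RLE normalization, other filters, other sets of boars and leaving out each boar. P-values measure the spread between boars.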

Additional observations from a re-analysis of the deposited data

Results flagged for a closer look

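In 2 of 40 sets of a member and a group of 4 to 8 boars, 1 boar stood far from the others by Dixon's criterion, and chance gives about 2. MYBL1 was at 156 CPM in L8, against 129 to 130 CPM in the other high boars of contrast (i). TBPL1 was at 200 CPM in D2, against 97.3 to 122 CPM in the other Duroc boars labelled high.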

How the results depend on the processing

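In contrast (i), 2 members were called, beside 2682 of all genes. DESeq2 called 4 members, the additions being TAF7L and MYBL1, and 3922 genes. The likelihood ratio test, RLE normalization and the fit without the low-count filter each called 3 members, the addition being TAF7L. They called 3427, 2866 and 2858 of all genes. All 13 Landrace boars in 1 fit gave 2 members and 2217 genes. Leaving out 1 boar gave 0 to 4 members. The count was 0 without L3 and without L6, where 1 gene was called among all genes. It was 1 without L1, L2, L4 or L8, with 966 to 1836 of all genes called. It was 2 without L7, with 2766 genes, and 4 without L5, with 3764. The cause was not tested, and fewer boars enter these fits. In the other 4 comparisons, 0 members were called under every alternative, leaving out 1 boar included. With every boar of a comparison kept or whole sets changed, 165 fold changes of single members kept their direction and side of the threshold, 5 gained a call and 14 changed sign. With 1 boar left out, 430 kept both, 2 gained and 8 lost a call, and 40 changed sign. Values that changed sign were close to 0. Without the low-count filter SOX30 had 0.02 in contrast (i), MYBL1 -0.04, SOX30 -0.02 and TBPL1 -0.01 in contrast (ii), and TBPL1 0.00 in contrast (iii). In contrast (ii), MYBL1 and SOX30 had -0.03 and -0.01 with RLE normalization and with DESeq2. In contrast (iii), TBPL1 had 0.02 with all 13 Landrace boars in 1 fit and BRDT -0.13 without L2 and L7. With breed and labelled level as terms, RFX2, SOX30 and TAF7L had 0.06, 0.03 and 0.02. With 1 boar left out, SOX30 ran from -0.15 to 0 in contrast (i). In contrast (ii), RFX2 ran from -0.22 to 0.19, RFX3 from -0.19 to 0.2, MYBL1 from -0.2 to 0.21, SOX30 from -0.11 to 0.22, BRDT from -0.16 to 0.15, TBPL1 from -0.15 to 0.14 and TAF7L from -0.02 to 0.2. In contrast (iii), BRDT ran from -0.07 to 0.08 and TBPL1 from -0.05 to 0.07. Between the breeds, RFX3 ran from -0.11 to 0.01, MYBL1 from -0.01 to 0.14, SOX30 from -0.07 to 0.03, TBPL1 from -0.15 to 0.02 and TAF7L from -0.14 to 0.07. In the interaction, SOX30 ran from -0.03 to 0.25. All these are log2 fold changes. No paired analysis was possible because the labels give the groups no shared replicate numbers. Each member had at least 2089 reads in every library.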
